A study of Caenorhabditis elegans with 3 samples.

Results

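The col genes are the large family of Caenorhabditis elegans genes that encode collagens, most of them structural proteins of the cuticle. They were taken as all protein-coding genes on the nuclear chromosomes whose Ensembl name begins with col-, which gave 156 of 19973 genes. PQM-1, a zinc-finger transcription factor, had been mapped by ChIP-seq, the sequencing of DNA recovered with the protein, in whole L1 larvae of strain OP201, with the genotype unc-119(tm4063) III and the transgene wgIs201. The transgene supplies PQM-1 with GFP-FLAG at its C-terminus, and the larvae were of mixed sex, of unknown age, untreated as far as the labels say, with chromatin broken by sonication. There was 1 group with 3 biological replicates, and every sample carried the mutation and the transgene, so the comparison here is between the col genes and all protein-coding genes within each peak list. The binding measured is that of a tagged protein from a transgene, in all tissues of the larva together, so binding in a few cells and weak binding in many cannot be told apart.

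Cuticle collagens are short proteins with long runs of the triplet glycine-X-Y. They are made by the hypodermis, the skin of the worm, in a burst at each moult, and are then cut, modified and cross-linked outside the cell into the new cuticle. PQM-1 is best known for its work in the intestine, where it acts in opposition to the insulin-pathway factor DAF-16 and is tied to the GATA-like word TGATAAG, called the DAF-16-associated element.

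The deposited lists hold ChIP-seq peaks, each with a signal value from the authors' peak caller, and peaks were ranked by that value within each list. A gene was counted at a given depth when a peak of that rank or better had its summit from 1000 bp upstream to 200 bp downstream of one of its annotated 5' ends, a stretch called the promoter window below. The lists were those of replicates 1, 2 and 3 and of the pooled replicates, with 30000 peaks each, and a shorter list of 682 pooled peaks that passed the authors' irreproducible discovery rate (IDR) threshold. No read counts came with the lists, so sequencing depth is unknown. Replicate 3 stood apart from the other replicates. Its 10000 highest-signal peaks reached the promoter window of 13.4% of all protein-coding genes, against 19.7% and 19.9% in replicates 1 and 2. At that depth the best peak of a gene had its summit in a coding exon for 31.6% of such genes in replicate 3, against 12.7% and 13.4% in replicates 1 and 2.

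The label of the family held in the sequence. Of the 156 col genes, 154 (98.7%) encoded at least 20 glycine-X-Y triplets in runs of 4 or more, against 203 (1.02%) of all protein-coding genes. The median col protein had 304 residues and 51 such triplets, against 329 residues and 0 triplets over all genes. The 2 col genes below that minimum were col-17, with 0 triplets in its annotated protein, and col-55, with 17. Members lay on every nuclear chromosome, with 21 on I, 24 on II, 12 on III, 41 on IV, 31 on V and 27 on X. Another member lay within 5000 bp of 50 of them, so neighbouring members can share a peak.

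The sequences below come from the WBcel235 reference genome (RefSeq), the assembly also called ce11, and are written on the strand of the col gene. The first set is centred on the summit of the best pooled peak of 5 of the 7 col genes ranked highest in the pooled list, and shows the kinds of sequence met there. The set leaves out col-101 and col-63. The capitals mark TTAGGC, the telomere repeat of the nematode, or its complement GCCTAA, which is frequent at 2 of the 5.
col-42, chrV:18638152-18638252, plus strand: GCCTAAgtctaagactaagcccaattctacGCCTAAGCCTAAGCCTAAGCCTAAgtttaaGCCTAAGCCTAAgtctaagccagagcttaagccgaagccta
col-110, chrIV:4610449-4610549, minus strand: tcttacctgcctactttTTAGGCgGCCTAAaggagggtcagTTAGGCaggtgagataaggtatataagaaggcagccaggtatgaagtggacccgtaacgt
col-155, chrV:11390757-11390857, minus strand: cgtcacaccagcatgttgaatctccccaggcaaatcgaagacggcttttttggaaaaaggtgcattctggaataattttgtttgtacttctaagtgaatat
col-39, chrII:10704112-10704212, plus strand: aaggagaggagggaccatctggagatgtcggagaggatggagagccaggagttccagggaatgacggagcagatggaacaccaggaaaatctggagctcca
col-69, chrII:305825-305925, minus strand: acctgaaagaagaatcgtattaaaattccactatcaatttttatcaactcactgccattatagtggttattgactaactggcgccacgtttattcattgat
The summit of col-155 lay in a coding exon of K03B8.14. The col-39 stretch is coding sequence of the neighbouring collagen gene col-79, and those of col-42, col-110 and col-69 are intergenic. None of the 5 holds TGATAAG.

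The second set shows col genes that do have TGATAAG within 50 bp of the summit of their best pooled peak. Here the capitals mark the word, which reads CTTATCA when it lies on the other strand.
col-149, chrV:10293042-10293142, minus strand: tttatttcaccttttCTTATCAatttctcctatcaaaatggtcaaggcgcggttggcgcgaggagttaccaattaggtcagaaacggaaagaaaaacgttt
col-119, chrIV:8980107-8980207, minus strand: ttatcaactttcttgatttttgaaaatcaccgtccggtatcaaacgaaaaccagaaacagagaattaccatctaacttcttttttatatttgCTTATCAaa
The third set shows the word upstream of col genes that had no window peak in any of the 4 ranked lists, with the capitals as before.
col-128, chrIV:11552019-11552059, minus strand: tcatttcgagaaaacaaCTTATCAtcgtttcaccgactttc
col-184, chrX:13469307-13469347, plus strand: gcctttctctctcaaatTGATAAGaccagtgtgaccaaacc
col-10, chrV:9165435-9165475, minus strand: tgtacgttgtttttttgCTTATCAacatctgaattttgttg
These copies lay 79, 128 and 148 bp upstream of the 5' ends of col-128, col-184 and col-10.

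Few of the strongest PQM-1 peaks lay near col genes. No col gene had an IDR peak in its window, 0 of 156, against 2.18% of all protein-coding genes. A count of 0 allows a share of up to 1.92% (3 counts of the total), and the 95% exact Clopper-Pearson interval reaches 2.34%, which includes the share of all genes. Among the 1000 highest-signal pooled peaks there were also 0 of 156 col genes, with the same limits, against 3.17%. Only col-42 and col-101 entered among the 2000 highest, which is 1.28% (exact interval 0.156 to 4.55) against 6.01%. These limits and intervals cover the counting of genes only.

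At greater depth the col share came nearer to that of all genes as a ratio, while the difference widened up to 10000 peaks and then narrowed. Among the 5000 highest-signal pooled peaks 9 col genes had a window peak, 5.77% (interval 2.67 to 10.7) against 11.5%. Among the 10000 highest there were 17, 10.9% (6.48 to 16.9) against 18.9%. Both intervals lie below the share of all genes, but they take genes as independent, which neighbours that share a peak are not. They do not measure the spread between replicates. Among the 20000 highest there were 39 col genes, 25% (18.4 to 32.6) against 31.3%, and in the whole pooled list 57, 36.5% (29.0 to 44.6) against 41.9%. At these depths the share of all genes lies inside the interval. The ratio of the col share to that of all genes was 0.213 at 2000 peaks, 0.502 at 5000, 0.577 at 10000, 0.8 at 20000 and 0.871 at 30000. The difference widened from -3.17 percentage points at 1000 peaks to -4.73 at 2000, -5.73 at 5000 and -7.98 at 10000. It was then -6.27 at 20000 and -5.4 at 30000.

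The gap was smaller among genes with 1 annotated 5' end, which 136 of the col genes (87.2%) and 73.7% of all protein-coding genes have. There the pooled shares were 0.735% (exact interval 0.0186 to 4.03) against 4.71% at 2000 peaks, 5.88% (2.57 to 11.3) against 9.4% at 5000 and 11.0% (6.31 to 17.5) against 15.7% at 10000. In the whole list they were 34.6% (26.6 to 43.2) against 37.1%. No such col gene had an IDR peak (0 of 136, exact interval up to 2.68%) against 1.72%. The col share was thus the lower at each of these depths, and its interval lay below the share of all genes at 2000 peaks but not at 5000, 10000 or 30000 or in the IDR list.

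**Figure D1:**
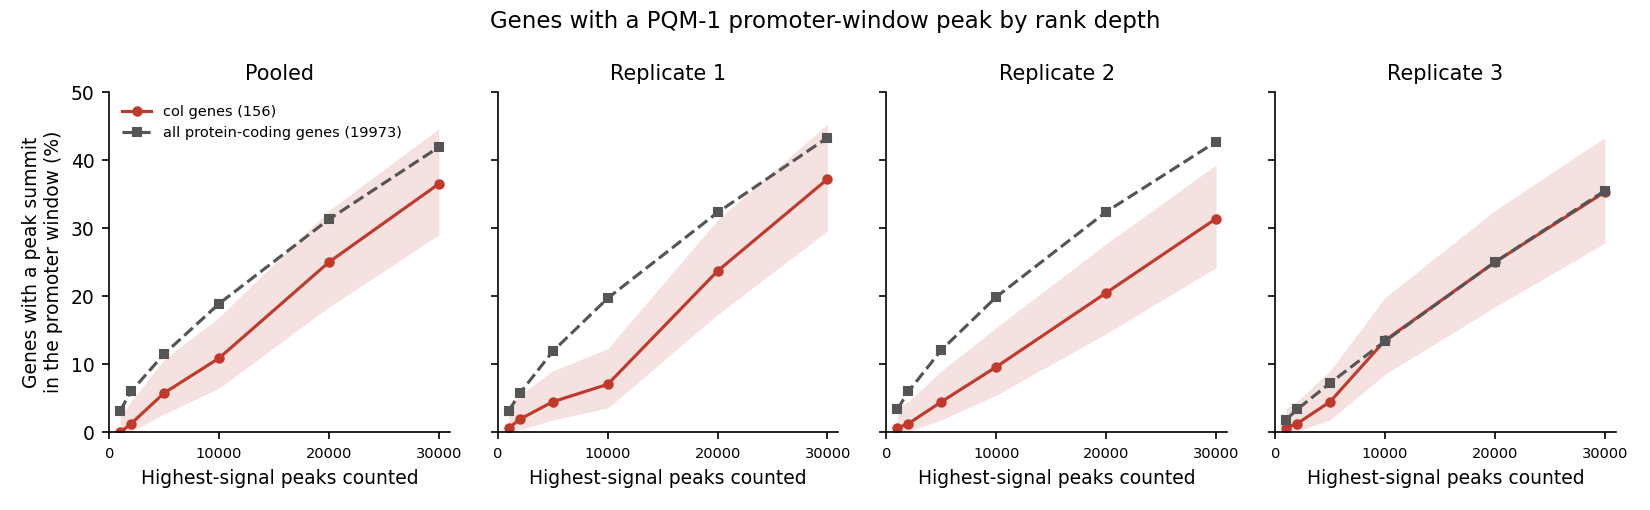
Percent of col genes (red circles, with the 95% exact interval shaded) and of all protein-coding genes (grey squares) with a peak summit in the promoter window, by the number of highest-signal peaks counted, in the pooled list and in each replicate list. The red line lies under the grey one in the pooled list and in replicates 1 and 2, and the lines meet in replicate 3 from 10000 peaks on.

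The col share was the lower at every depth in replicates 1 and 2, and at the top of the list in replicate 3. Among the 1000 highest-signal peaks of each replicate 1 col gene had a window peak, 0.641% (interval 0.0162 to 3.52). The shares of all genes were 3.18%, 3.41% and 1.86% in replicates 1, 2 and 3, all inside that interval. Among the 5000 highest there were 7 col genes in each replicate, 4.49% (1.82 to 9.03), against 11.9%, 12.1% and 7.24%. This interval lies below the share of all genes in replicates 1 and 2 but includes it in replicate 3.

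Among the 10000 highest-signal peaks the replicates parted. Replicate 1 had 11 col genes, 7.05% (interval 3.57 to 12.3) against 19.7%, and replicate 2 had 15, 9.62% (5.48 to 15.4) against 19.9%. Replicate 3 had 21, 13.5% (8.53 to 19.8) against 13.4%. In the whole lists replicate 1 had 37.2% (29.6 to 45.3) against 43.3%, and replicate 2 had 31.4% (24.2 to 39.3) against 42.7%. Replicate 3 had 35.3% (27.8 to 43.3) against 35.5%. In replicate 3 the col share was thus below that of all genes at 1000 and 5000 peaks and level with it from 10000 on. Its intervals at 1000 and 5000 peaks included the share of all genes.

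Over the 3 replicates the mean difference between the col share and that of all genes was -5.91 ± 2.73 percentage points at 5000 peaks (SD, n = 3), lower in 3 of 3 replicates (exact sign-flip permutation, two-sided, p = 0.25). This is the smallest p that 3 replicates allow. At 10000 peaks it was -7.61 ± 6.75 points (SD, n = 3), lower in 2 of 3 replicates (exact sign-flip permutation, two-sided, p = 0.5), and -11.5 points without replicate 3. At 30000 peaks it was -5.86 ± 5.53 points (SD, n = 3), lower in 3 of 3 (exact sign-flip permutation, two-sided, p = 0.25), but replicate 3 differed by -0.221 points only. With 1 annotated 5' end, 500 bp upstream or unshared windows, the col share at 30000 was not lower in every replicate (exact sign-flip permutation, two-sided, p = 0.5 in each). Among genes with 1 annotated 5' end the mean differences were -4.25, -5.07 and -1.78 points at 5000, 10000 and 30000 peaks. The design cannot pass the usual threshold, so the values of each replicate carry the comparison.

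The lower ranks added little to the gap. Of the col genes with no window peak among the 10000 highest of the pooled list, 28.8% gained one by 30000, against 28.4% of all genes. In replicates 1, 2 and 3 these shares were 32.4% against 29.4%, 24.1% against 28.4% and 25.2% against 25.5%. The col value was thus within 1 point of that of all genes in the pooled list and in replicate 3, above it in replicate 1 and below it in replicate 2. These differences were not tested.

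Few col genes had a peak in every replicate. A window peak lay in all 3 whole replicate lists for 12 col genes (7.69% against 12.4% of all genes), in 2 for 32 (20.5% against 25%), in 1 for 62 (39.7% against 34.2%) and in none for 50 (32.1% against 28.4%). Among genes with 1 annotated 5' end, 10 of 136 col genes had a window peak in all 3 lists, 7.35% against 8.35%, so most of that difference was absent there. Among the 10000 highest-signal peaks of each replicate, no col gene was met in all 3, which allows a share of up to 1.92%, where 590 of all protein-coding genes were (2.95%). There 8 col genes were met in 2 replicates (5.13% against 9.36%). Counting the pooled list as well, 48 of the 156 had no window peak in any of the 4 ranked lists. The share of all genes with none in the 4 lists was not counted, so this count is not set against a background.

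Where the pooled signal met a col gene, it usually rested on 1 replicate. The 57 col genes with a pooled window peak shared 55 peaks, and col-50 and col-51, which are divergent neighbours, met the same one. A replicate peak covered the pooled summit in all 3 replicates for 5 of the 57 (8.77% against 11.6% of all genes with a pooled window peak), in 2 for 12 (21.1% against 35.4%), in 1 for 33 (57.9% against 43.6%) and in none for 7 (12.3% against 9.38%). The summit lay also in the window of another gene for 11 of the 57, so the gene met there is not resolved. How often this held over all genes with a pooled window peak was not counted.

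The highest-ranked col genes in the pooled list show this spread. The replicate ranks given are those of the best window peak in each list, which need not cover the pooled summit. The 2 best were col-42, at rank 1606, and col-101, at rank 1904. The best window peak of col-42 ranked 23564, 8141 and 110 in replicates 1, 2 and 3, so 1 replicate had a peak near the top. In replicate 2 the best peak lay 861 bp upstream, and the peak over the pooled summit ranked 18001. For col-101 the ranks were 1721, 1814 and 26507, so replicates 1 and 2 placed it alike and replicate 3 near the end of its list.

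The col-42 gene lies on chromosome V (18638484 to 18639591, plus strand), and its pooled peak (V, 18638057 to 18638346) had its summit 282 bp upstream, in the repeat printed above. The col-101 gene lies on IV (325435 to 327020, minus strand). Its summit (peak at IV, 326506 to 326795) fell in a coding exon of col-101 itself, 121 bp upstream of the later of 2 annotated 5' ends. The window of col-101 held 1 copy of TGATAAG, which was not at the summit.

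Of the next col genes, col-155 ranked 2357 in the pooled list and 5006 and 10677 in replicates 1 and 3, with no window peak in replicate 2. Its summit lay 931 bp upstream in a coding exon of K03B8.14. The gene col-110 ranked 2654, and 10284 and 14126 in replicates 1 and 2, with none in replicate 3. The replicate 2 peak of col-110, 656 bp upstream, did not cover the pooled summit, 831 bp upstream. The summit of col-63, at rank 2826, lay 690 bp upstream in a non-coding or UTR exon of the homeobox gene ceh-8. Its ranks of 928, 2110 and 21394 in replicates 1, 2 and 3 follow the order seen at col-101. The replicate 3 peak of col-63, 264 bp upstream, did not cover the pooled summit.

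The gene col-39 ranked 2836, and 22669, 11348 and 4562 in replicates 1, 2 and 3, with the summit in a coding exon of col-79. That summit also lies in the window of dph-2, a gene of diphthamide synthesis. The gene col-69 ranked 3412, and 3125 and 4494 in replicates 1 and 2, with none in replicate 3. The replicate 1 peak of col-69, 933 bp upstream, did not cover the pooled summit, 130 bp upstream. Here too the lists placed the gene differently, and replicate 3 was the one without a peak.

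The summit for col-164, at rank 3519, lay in a coding exon of the zinc-finger gene lsy-2, 793 bp upstream, and the ranks were 4012, 23832 and 8338. The gene col-38 ranked 3708, and 2513 and 442 in replicates 1 and 2, with none in replicate 3. Its pooled summit lay 46 bp upstream and also in the window of rpl-5, which encodes a ribosomal protein. The replicate 1 peak, with its summit 3 bp downstream, covered the pooled summit, and the replicate 2 peak, 451 bp upstream, did not.

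Below these, col-76 ranked 5680 and had a window peak in replicate 1 alone, at rank 1443. The gene col-152 ranked 5813, and 10635, 25046 and 23189 in replicates 1, 2 and 3, within a coding exon of the bestrophin gene best-14. The gene col-74 ranked 7440, and 13233, 9602 and 22055, where the replicate 3 peak, 450 bp upstream, did not cover the pooled summit. For both genes the rank was better in the pooled list than in any replicate.

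By the median rank over the replicates, the best col genes with a window peak in all 3 were col-101 (1814), col-63 (2110), col-42 (8141), col-164 (8338), col-105 (10085) and col-36 (10899). At col-63 and col-42 the peaks behind the median were not all at the pooled summit, as given above. The gene col-105 ranked 21995, 10085 and 7071 and had no pooled window peak. Its 3 summits lay 374 bp upstream, 102 bp downstream and 720 bp upstream, so they mark different places. The gene col-36 ranked 10899, 10422 and 23087, with the first 2 summits 952 and 789 bp upstream and the last 22 bp downstream.

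**Figure D2:**
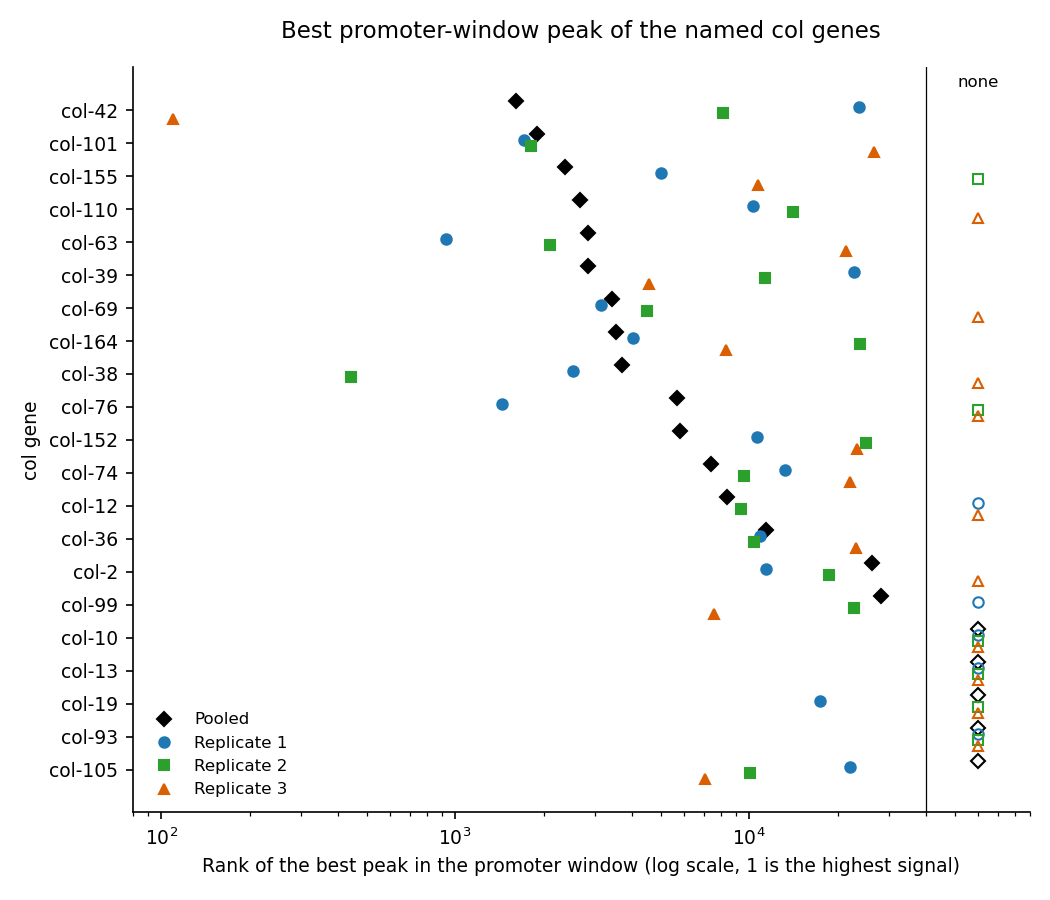
Rank of the best promoter-window peak (log scale, 1 is the highest signal) of each named col gene in the pooled list (black diamonds) and in replicates 1 (blue circles), 2 (green squares) and 3 (orange triangles), with open symbols at the right where a list had no window peak. For col-42 the replicate ranks run from 110 to 23564, and no gene has all 4 symbols left of 10000.

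Of the col genes named whatever their values, col-19 and col-2, of known stage, had low ranks or none. The gene col-19, which encodes an adult-stage cuticle collagen, had a window peak in replicate 1 alone, at rank 17401. The gene col-2, known as a dauer-stage collagen gene, ranked 26181 in the pooled list and 11385 and 18621 in replicates 1 and 2, at a summit shared with ndc-80, a kinetochore gene. Neither was among the 10000 highest-signal peaks of any list.

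The near-identical neighbours col-12 and col-13 differed in their lists. The gene col-12 ranked 8412 in the pooled list and 9405 in replicate 2, with a summit 226 bp upstream in a coding exon of apc-10, which encodes a subunit of the anaphase-promoting complex. The gene col-13 had no window peak in any list. Of their windows 91.7% and 87.5% of positions began a 32-base word found once in the genome, so part of each window is not unique at that length. The pooled peak of col-12 was itself 100% unique. Whether the 2 windows share the repeated words was not tested.

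No list held a window peak for col-10, whose promoter is in use as a hypodermal driver, or for col-93. The gene col-99 encodes a transmembrane collagen and is the largest of these, with 735 residues and 132 triplets. It ranked 27997 in the pooled list and 22701 and 7608 in replicates 2 and 3, with the pooled summit 33 bp inside the gene.

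The nearest approaches of the IDR list lay outside the window. With 2000 bp upstream, col-94 met the IDR peak ranked 675 (III, 10989564 to 10989853), 1836 bp upstream of its 5' end. With overlap of the peak in place of the summit, col-85 met the IDR peak ranked 616 (II, 12494662 to 12494951), whose summit lay 288 bp downstream. An IDR summit lay within 2000 bp of the 5' end of 2 col genes (1.28% against 3.6% of all genes) and within 5000 bp of 10 (6.41% against 7.1%). The median distance to the nearest IDR summit was 49372.5 bp for col genes against 54368 bp for all genes.

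The profile of summits shows where the gap lay. It was taken around the outermost annotated 5' end of each gene, where the window shares use every annotated 5' end. In the 500 bp upstream the 10000 highest-signal pooled peaks gave 10.3 summits per 100 col genes per kb, against 19.1 for all genes. From 1000 to 500 bp upstream the values were 11.5 against 11.1, and in the first 1000 bp downstream 10.9 against 9.83. The first 250 bp downstream alone gave 0.641 summits per 100 col genes, from 1 summit, against 2.97 for all genes. In replicates 1, 2 and 3 that bin gave 1.28, 2.56 and 1.28, against 2.98, 2.97 and 2.93. The col value there was thus the lower in each list, on few summits. All protein-coding genes thus had a crest just upstream of the 5' end, and the col genes had none that stood above their own surroundings.

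In replicates 1 and 2 the 500 bp upstream gave 6.41 and 8.97 summits per 100 col genes per kb, against 20.4 and 21.3 for all genes. In replicate 3 it gave 12.8 against 9.7, and there all genes had no crest either. The 8 summits behind the pooled value for col genes are few.

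**Figure D3:**
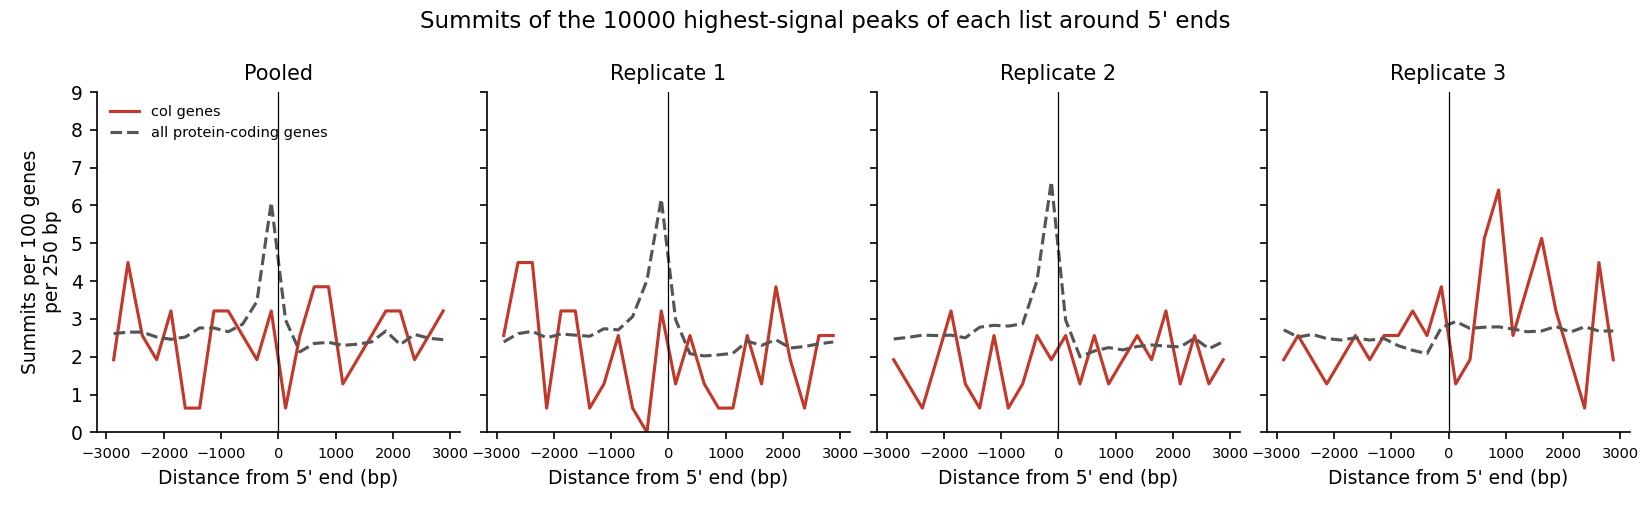
Summits of the 10000 highest-signal peaks per 100 genes in bins of 250 bp, by distance from the outermost annotated 5' end (bp, negative is upstream), for col genes (red) and all protein-coding genes (grey, dashed), in the pooled list and each replicate list. The grey line has a crest just upstream of 0 in the pooled list and in replicates 1 and 2 and none in replicate 3, and the red line, from few summits, has no such crest in the first 3.

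The windows themselves were alike in size and content. Their median length was 1200 bp for col genes and for all genes, the median GC content 35.8% against 35.0%, and 117 col windows (75%) were at least 95% unique in 32-base words, against 79.1%. Bases were shared with the window of another gene in 52 (33.3%) against 36.1%. All genes more often had several annotated 5' ends, as given above, and so more sequence in which to be met. Under the best pooled peaks among the 10000 highest, 17 of 17 col genes had a peak at least 95% unique, against 95.4%.

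The word tied to PQM-1 was present at col genes. TGATAAG, read on both strands, lay in the window of 55 col genes (35.3%) against 26.5% of all protein-coding genes. Among genes with 1 annotated 5' end the shares were 34.6% against 23.8%. The shorter word TGATAA, which every TGATAAG contains, was in 78.2% of col windows against 75.4%, and the reversed control word GAATAGT in 17.3% against 18.7%. There were 65 copies of TGATAAG, with 47 col genes having 1, 6 having 2, and 2, namely col-65 and col-106, having 3. The median copy lay 269 bp upstream of the 5' end for col genes and for all genes, and 63.1% of the col copies against 50.7% lay in the first 500 bp upstream.

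These copies were seldom under a peak. Of the 65, none had a summit of the 10000 highest-signal pooled peaks within 50 bp, which allows a share of up to 4.62%, against 9.12% of the copies at all genes. In replicates 1, 2 and 3 the counts were 0, 0 and 1 of 65, against 7.69%, 8.56% and 3.94%. In the whole pooled list 4 copies had a summit within 50 bp (6.15% against 12.8%), those at col-83, col-119, col-129 and col-149. The counts under col genes are small, and no list had more than 5 such copies.

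**Figure D4:**
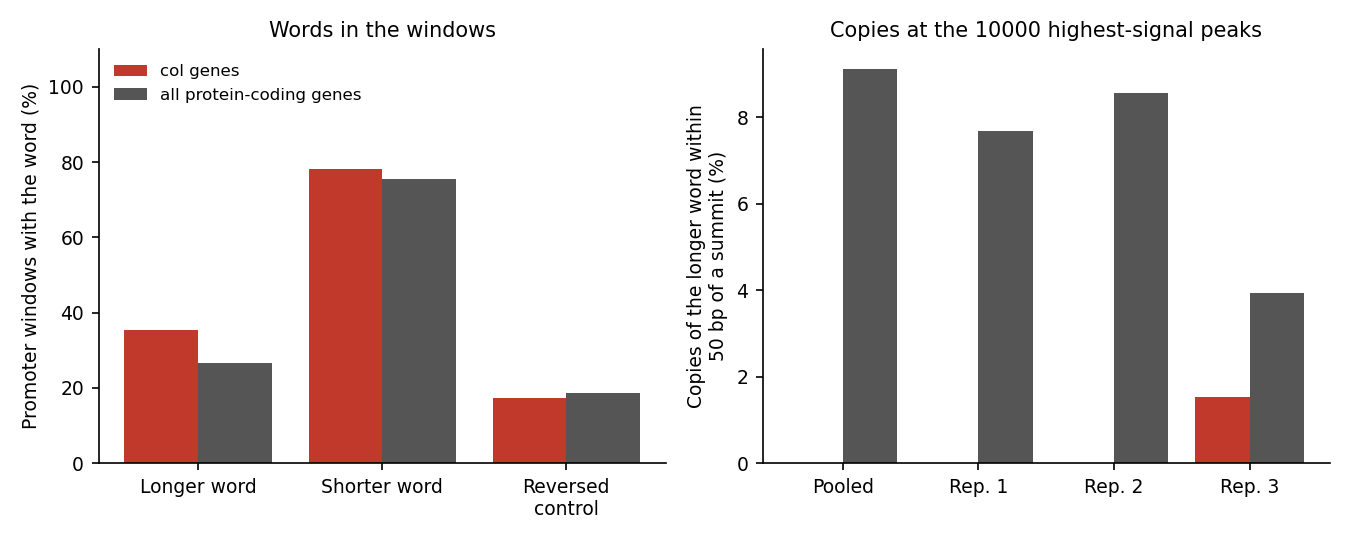
Left, percent of promoter windows that hold the longer word (TGATAAG), the shorter word (TGATAA) and the reversed control word (GAATAGT), for col genes (red) and all protein-coding genes (grey). Right, percent of TGATAAG copies in the windows with a summit of the 10000 highest-signal peaks within 50 bp, in each list, where the red bars are 0 in the pooled list and replicates 1 and 2 and 1.54% in replicate 3.

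The word was also counted from the peaks. Of the 17 col genes with a peak among the 10000 highest of the pooled list, 0 had TGATAAG within 50 bp of the summit, which allows a share of up to 17.6%, against 12.9% of all such genes. In the whole pooled list there were 3 of 57 (5.26%) against 7.89%, namely col-149 at rank 10526, col-129 at 12021 and col-119 at 17775. Of the col genes whose best pooled peak ranked past 10000 this is 3 of 40, 7.5% against 3.78%, so the order was reversed in the lower ranks. Within the 10000 highest of replicates 1, 2 and 3 the counts were 0 of 11, 0 of 15 and 1 of 21, against 10.5%, 11.1% and 8.11%. With the shorter word TGATAA the shares in the whole pooled list were 17.5% against 18%. A replicate peak covered each of these summits in 1 replicate alone, at rank 14563 in replicate 2 for col-149, 3054 in replicate 1 for col-129 and 4634 in replicate 3 for col-119. The genes behind these counts were chosen after their values were seen.

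Holding the word went with more peaks in both sets of genes. Among the 10000 highest-signal pooled peaks, 18.2% of the 55 col genes with TGATAAG in the window had a window peak, against 29.4% of all genes with the word. Of the 101 col genes without it 6.93% had one, against 15.1%. The col share was thus below that of all genes with the word and without it. In replicates 1, 2 and 3 the shares with the word were 12.7% against 28.6%, 12.7% against 28.1% and 16.4% against 18.8%, and without it 3.96% against 16.4%, 7.92% against 17% and 11.9% against 11.4%. In the whole pooled list 27 of the 55 had a window peak, 49.1% against 52.4% of all genes with the word, and 28 had none. Of the 55, 14 had no window peak in any of the 4 ranked lists, col-10, col-93, col-128 and col-184 among them. The share of all genes with the word and no peak in the 4 lists was not counted.

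The annotation under the best pooled peaks also differed. Among the 10000 highest, the summit lay in a coding exon for 8 of 17 col genes (47.1%) against 15.4% of all genes, and in intergenic sequence for 8 (47.1%) against 55.3%. In 7 of the 8 the exon belonged to another gene, as at col-155, col-39, col-164, col-152, col-74, col-151 and col-12, and at col-101 to the gene itself. The replicates gave 0 of 11 col genes (a share of up to 27.3%) against 12.7% in replicate 1, 5 of 15 (33.3%) against 13.4% in replicate 2 and 8 of 21 (38.1%) against 31.6% in replicate 3. The pooled share was thus not met in replicate 1. In the whole pooled list the coding-exon share was 28.1% against 19.9%.

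The telomere repeat printed for col-42 and col-110 was noticed after the sequences had been seen. It is scattered inside the chromosomes of the nematode as well as at their ends. Within 50 bp of the summit of the best pooled peak TTAGGC had 7 copies at col-42, 3 at col-110, 4 at col-65 and 1 at col-176. At least 3 copies lay there for 2 of the 17 col genes among the 10000 highest (11.8%), against 7 of 3770 genes (0.186%), and for 3 of the 57 in the whole list (5.26%), against 16 of 8377 (0.191%). The best window peaks of col-42 and col-65 in replicate 3 ranked 110 and 1154, where col-65 had none in replicates 1 and 2. At col-42 the pooled peak was 95.8% unique, and the part of the repeat in its rank was not tested.

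By chromosome, the 10000 highest-signal pooled peaks met 1 of 21 col genes on I (4.76% against 19.1% of all genes there), 5 of 24 on II (20.8% against 19.6%), 0 of 12 on III (against 21.7%), 2 of 41 on IV (4.88% against 18.4%), 7 of 31 on V (22.6% against 16.7%) and 2 of 27 on X (7.41% against 19.6%). The col share was below that of all genes on I, III, IV and X and above it on II and V. On III the 0 of 12 allows a share of up to 25%. On V the replicates each met 3 of 31 (9.68%), against 17.1%, 17.7% and 12.3% in replicates 1, 2 and 3, so the pooled share on V was not seen in any replicate. On IV they met 2, 4 and 4 of 41, against 19.3%, 20.5% and 12.9% of all genes there.

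Collagen genes with other names were few, and differences from the col genes were not tested. Of 19 other cuticle collagens, of the dpy, sqt, rol, bli and lon classes that shape the body, 0 had an IDR peak (a share of up to 15.8%, against 2.18% of all genes). Among the 10000 highest pooled peaks 3 had a window peak (15.8% against 18.9%), and in the whole list 7 (36.8% against 41.9%). In the whole lists of replicates 1, 2 and 3 the shares were 52.6%, 36.8% and 21.1%, against 43.3%, 42.7% and 35.5%. The best were lon-3 at rank 7589, dpy-10 at 7722 and bli-6 at 9559, the last at a summit shared with hrpf-2. None of these summits held TGATAAG. Of the 3 basement membrane collagens, cle-1, the type XVIII collagen, ranked 19258, and the type IV chains emb-9 and let-2 had no pooled window peak.

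Of 10 collagen processing and cross-linking enzymes 0 had an IDR peak (a share of up to 30%, against 2.18% of all genes), and 2 had a window peak among the 10000 highest pooled peaks (20% against 18.9%). The gene pdi-2, which encodes a disulfide isomerase that is also a subunit of collagen prolyl 4-hydroxylase, ranked 703 in the pooled list, just past the 682 IDR peaks, and 926, 792 and 6806 in replicates 1, 2 and 3. The gene dpy-18, the catalytic subunit, ranked 8649, and dpy-31, a procollagen protease, 19882.

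Of 9 hypodermal and moulting transcription factors 1 had an IDR peak (11.1% against 2.18% of all genes), and 2 had a window peak among the 10000 highest pooled peaks (22.2% against 18.9%), counts too small to set apart from all genes. The IDR peak was that of blmp-1, which encodes a zinc-finger factor of moulting and developmental timing, with an IDR rank of 97 and ranks of 47, 869 and 4130 in replicates 1, 2 and 3, and with TGATAAG at the summit 215 bp upstream. The gene myrf-1, a membrane-bound factor needed for moulting, ranked 2317 in the pooled list and 2332 and 1022 in replicates 1 and 2, with none in replicate 3. The gene lin-26, a hypodermal fate factor, ranked 10261. The rank of blmp-1 in the pooled list was thus ahead of every one of the 156 col genes, whose best was 1606.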

How the data were processed

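PQM-1 ChIP-seq was deposited as peak lists for 3 biological replicates and their pool, on ce10 and ce11, per the file headers and READMEs. Only the ce11 lists were used. The IDR threshold, peak caller and aligner were not given in the sources used here, and the 1 control file was not analysed here. Column 7 of the deposited lists holds each peak's signal as the authors' caller gave it. Scales differ between lists, so it served as a rank within each, with ties ordered by position. In replicate 2 4778 peaks shared their signal with another.

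Genes came from Ensembl release 115 and sequence from WBcel235. Uniqueness is the share of positions that begin a 32-base word found once in the genome. Both strands were searched for words, and a word counted as at a summit when within 50 bp of it. All protein-coding genes include the col genes. Intervals are 95% Clopper-Pearson intervals over genes, which they take as independent, and serve as description and not as a test.

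The members, lists, words and depths were chosen with earlier results of these data known. Named genes were the 12 col genes ranked highest in the pooled list, the 6 with the best median replicate rank, col-2, col-10, col-12, col-13, col-19, col-93 and col-99, up to 3 genes of each other list, and any col gene that met an IDR peak under an alternative. No test over genes was made. Functions were tested on simulated data. The alternatives were other window widths, peak overlap, the nearest gene alone, unique windows, windows free of other windows, single 5' ends, other word lengths and distances, the upper ranks alone, and each replicate left out. The tools were matplotlib 3.10.9, SciPy 1.17.1, pandas 2.3.3, numpy 2.4.6 and Python 3.11.15.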

Additional observations from a re-analysis of the deposited data

How the results depend on the processing

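The difference between the col share and that of all protein-coding genes was negative under each of the 124 alternatives run, for the shares in the pooled, IDR and replicate-mean lists and for the word at the summit. In 118 it was counted as unmoved. For counts of genes this meant a shift within their error, which is wide. For the replicate mean no such error was set, so there the difference counted as unmoved when its sign held. With genes of 1 annotated 5' end alone it came to -3.52, -4.63, -2.01 and -2.55 at 5000, 10000, 20000 and 30000 pooled peaks (-5.73, -7.98, -6.27 and -5.4 without that limit), to -3.34 and -1.78 in the replicate mean at 20000 and 30000 (-6.83 and -5.86), and to -0.995 for a peak in every replicate. At 30000 pooled peaks it was -2.58 with 2000 bp upstream, -3.32 with unshared windows and -8.34 with unique windows. With 2000 bp upstream it was -2.27 points in the IDR list and -3.62 at 1000 pooled peaks, and with unique windows alone -2.46 and -3.56, where the chosen window gave -2.18 and -3.17. The share with TGATAAG at the summit differed by -12.9 points among the 10000 highest-signal peaks, by -2.63 in the whole list, by -4.45 within 25 bp and by -0.506 for TGATAA. Leaving out each replicate in turn gave mean differences of -2.66 to -1.88 points at 1000 peaks, -4.27 to -2.94 at 2000, -7.48 to -5.06 at 5000, -11.5 to -5.12 at 10000, -10.3 to -4.29 at 20000 and -8.68 to -3.16 at 30000. For a peak in every replicate it gave -8.41 to -4.67, against -4.73 with all 3 (-2.95 in the 10000 highest peaks, -2.97 with unshared windows), and the lowest was without replicate 3. Whichever replicate was left out, only 2 lists had to be met. The cause of these shifts was not tested. No paired analysis was possible because every replicate belonged to 1 group, so no samples pair across groups. The sign-flip permutation sets 2 gene sets side by side within each replicate. Depth is unknown, so weak binding below the 30000 listed peaks was not detectable here.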
